A study of Mus musculus with 14 samples.

Results

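The genes described here are 10 members of the AP-1 group of transcription factors, chosen by symbol among the 24411 gene symbols of the count tables: Fos, Fosb, Fosl1, Fosl2, Jun, Junb, Jund, Atf3, Batf and Maff. All 10 were in the tables and all 10 passed the filter on low counts that left 14300 genes. Their RNA was counted in whole kidneys of male C57/B6 mice aged 8 weeks, in 4 libraries of day 0, 5 of day 1 and 5 of day 3 after renal ischemia/reperfusion injury (IRI), in which blood flow to the kidney is interrupted and restored. The mice carried no named allele and received no named agent. Day 0 libraries carry a control name, and whether those mice had sham surgery is not in the labels. The labels number the libraries of a day as replicates without saying that each came from its own mouse, so the p-values measure the spread between libraries.

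AP-1 is a pair of basic leucine zipper (bZIP) proteins that binds DNA. Proteins of the Jun family pair with each other or with the Fos family, whereas Fos proteins need a Jun partner, so the make-up of the pair sets what the complex does. Several of these genes are immediate early genes, transcribed soon after growth factors, stress or injury reach a cell through serum response factor and cAMP response elements, and the Jun proteins are further activated by MAP kinases. In the kidney, Fos, Jun and Atf3 are known as early response genes of the injured tubule.

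Depth on genes ran from 12485579 to 20476979 reads per library. Each library name ends in a number, written with 3 digits for 2 libraries of day 1 (replicates 1 and 2) and 3 libraries of day 3 (replicates 1, 2 and 3). The others, with all of day 0 among them, have 1 digit. The sources leave the meaning of this format unstated, and values are therefore also given within it. The 10 marker genes of the proximal tubule, the main tubule segment of the kidney, summed to 41543 to 44861 CPM (counts scaled to the library's reads on genes) in day 0 libraries, as a kidney would give, and to 18089 to 45969 CPM at day 1 and 8829 to 18200 CPM at day 3. Markers of tubular injury rose in 7 of 8 cases at either day, from summed levels of 275 to 313 CPM at day 0 to 2375 to 7307 CPM at day 1, where 23.3% of all genes rose at day 1 and 19.5% at day 3.

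The promoters of Fos, Jun, Atf3 and Maff are shown as examples from the genes that rose at day 1, since they hold a match to the cAMP response element TGACGTCA (Maff), to its core TGACG (Fos and Atf3) or to the related TGACATCA (Jun). Fosb and Junb, which also rose, hold TGACG too and are not printed. Each sequence is the 150 bases before a RefSeq start site of GRCm38.p6, on the strand of the gene. Fos lies at chr12:85473740-85473889 (+), Jun at chr4:95052223-95052372 (-), Atf3 at chr1:191183334-191183483 (-) and Maff at chr15:79347370-79347519 (+), the last being the start site of its 3 that holds the full element. Capitals mark TGACG on either strand (CGTCA in Atf3) or TGACNTCA.
Fos: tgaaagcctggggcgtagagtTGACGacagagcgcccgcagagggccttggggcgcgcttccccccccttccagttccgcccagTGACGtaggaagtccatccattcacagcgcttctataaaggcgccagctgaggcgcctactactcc
Jun: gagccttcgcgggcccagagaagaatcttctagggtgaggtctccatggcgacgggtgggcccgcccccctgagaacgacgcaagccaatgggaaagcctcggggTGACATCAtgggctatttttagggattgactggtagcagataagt
Atf3: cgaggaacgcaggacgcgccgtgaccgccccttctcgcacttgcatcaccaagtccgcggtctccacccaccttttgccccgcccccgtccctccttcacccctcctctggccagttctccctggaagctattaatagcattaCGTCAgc
Maff: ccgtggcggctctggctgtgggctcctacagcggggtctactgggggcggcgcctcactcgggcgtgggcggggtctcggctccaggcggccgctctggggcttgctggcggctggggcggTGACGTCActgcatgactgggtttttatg

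In Fos, TGACG starts 129 and 66 bases before the start site, and a TATAAA starts 33 bases before it. In Jun, TGACATCA starts at 45 bases before the start site. The Maff promoter holds TGACGTCA, which reads the same on both strands, at 29 bases before it, and Atf3 holds CGTCA at 7 bases before it. RefSeq entries running from 250 bases before to 50 after the start site were at hand for 9 of the 10 members, all but Fosl1. Maff has 3 of these 11 entries and the other members 1 each, and shares are counted per entry. The Jund entry (chr8:70697489-70697788) ends before the annotated start of that gene at 70698949. The Atf3 entry (chr1:191183284-191183583) lies inside its annotated gene. TGACG on either strand was in 7 of the 11 entries (1 each of Fos, Fosb, Junb, Atf3 and Batf and 2 of Maff), against 20.9% of 32544 promoters of that length. TGACNTCA, of which TGACGTCA is a special case, was in 3 of the 11, that of Jun and 2 of Maff, against 8.62% of promoters. Neither strand of any member's window held TGACTCA, the binding site of AP-1, which 5.19% of promoters held. A serum response element was matched in 0 of the 11 entries, against 1.64% of promoters. TATAAA on either strand was in 2 of the 11, against 13.6%. Such matches describe letters in a window, and no binding was measured here.

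At day 1 after IRI, 9 of the 10 AP-1 genes rose against day 0, and Batf did not pass the test. By edgeR's quasi-likelihood test with Benjamini-Hochberg adjustment, 23.3% of all genes tested were called higher in this comparison. The libraries of the 2 days did not overlap for the same 9 genes, against 21.5% of all genes. The members' median log2 fold change was 4.11, beside 0.0073 over all genes. In whole tissue, more RNA per cell and more cells of a type that holds the RNA cannot be told apart. Besides the neutrophil and injury markers, those of smooth muscle were called higher at day 1 in 3 of 6 cases (summed 309 to 578 CPM, against 142 to 169.8 CPM at day 0), of fibroblasts and pericytes in 2 of 6, of endothelium in 2 of 6 with 1 lower, and of macrophages and monocytes in 2 of 10 with 1 lower. Over all genes, 18.7% were called lower at day 1. Markers of the thick limb and distal tubule were called lower in 4 of 6 cases (3428 to 6057 CPM, against 7109 to 9831 CPM), of the proximal tubule in 3 of 10 and of the collecting duct in 2 of 6. Their part in the AP-1 values was not tested.

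**Figure D1:**
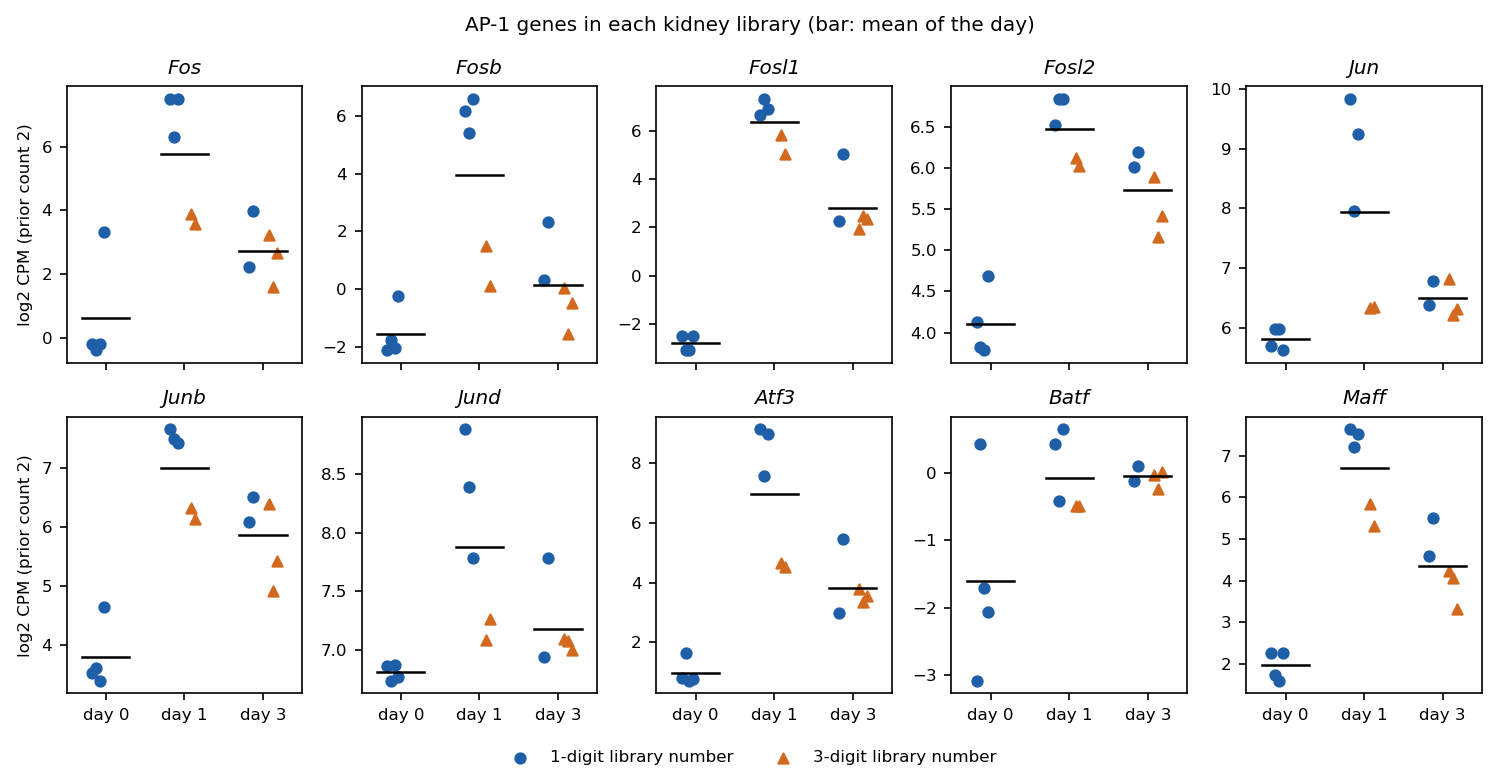
Log2 CPM (prior count 2) of each AP-1 gene in every library by day; circles are libraries with a 1-digit number, triangles those with a 3-digit number, and the bar is the mean of the day. In 9 panels every day 1 library lies above every day 0 library, and the triangles of day 1 lie under the circles of day 1 in each panel.

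Fos, the namesake of its family (chr12:85473890-85477273, GRCm38), was at 0.748, 0.647, 0.758 and 9.86 CPM in day 0 replicates 1 to 4. At day 1 it was at 14.6 and 11.8 CPM in the 3-digit replicates 1 and 2, and at 183, 79.2 and 182 CPM in the 1-digit replicates 3 to 5. Replicate 4 of day 0 thus stood well above the other controls and just under the lowest day 1 library. The log2 fold change of day 1 was 4.97 ± 1.09 (SE; adjusted p = 0.00293, edgeR), and 7.02 without day 0 replicate 4. At day 3 Fos was at 9.26, 2.87, 6.24, 4.57 and 15.8 CPM, overlapping that control, and the fold change of 1.36 was not called (adjusted p = 0.29). It was 3.41 (adjusted p = 0.0286) without day 0 replicate 4.

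Fosb, a close relative of Fos that is also an immediate early gene (chr7:19302696-19310051), was at 0.115, 0.177, 0.126 and 0.726 CPM at day 0, from 2, 3, 2 and 12 counts. At day 1 it reached 2.69 and 0.954 CPM in the 3-digit libraries and 71.3, 42.1 and 96.4 CPM in the 1-digit libraries, a change of 7.19 ± 1.44 on the log2 scale (adjusted p = 0.00169, edgeR), and of 8.18 without day 0 replicate 4. The span within day 1 was wider for Fosb than the gap between its day 0 and 3-digit day 1 libraries. At day 3 it was at 0.916, 0.225, 0.594, 1.14 and 4.85 CPM, overlapping day 0, with a fold change of 2.35 (adjusted p = 0.214). That value leans on replicate 5, the highest of day 3, and was 3.34 (adjusted p = 0.181, edgeR) without day 0 replicate 4. It was not called in any fit that left out a library.

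Fosl1, which encodes the Fos-related antigen FRA1, had 1, 0, 0 and 1 counts at day 0 and was at or under the floor of 3 counts in every control library. At day 1 it was at 57.2, 32.5, 99.97, 162 and 122 CPM, and the mean of 94.6 CPM was at least 526-fold higher than the mean day 0 floor of 0.18 CPM (adjusted p = 2.38e-05, edgeR). Replicate 2, the lowest of day 1, was at least 180-fold above that mean floor. Every injured library was thus far above every control. At day 3 it was at 3.72, 5.35, 5.0002, 4.64 and 33.0 CPM, with a mean at least 57.4-fold higher than the floor (adjusted p = 0.000359). Replicate 5 of day 3 stood apart from the other day 3 libraries, and without it the bound was 26.0-fold. Fosl1 (chr19:5447547-5455946) overlaps the gene Ccdc85b on the other strand over 2767 bases, and the unstranded count column held only 14.2% of its stranded counts, so its level needs the stranded column.

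Fosl2, which encodes FRA2, had the highest mean level per kilobase of the Fos family at day 0 (chr5:32135801-32157842). It was at 17.4, 14.005, 13.7 and 25.6 CPM at day 0, at 69.7, 64.7, 92.1, 115 and 114 CPM at day 1 and at 59.4, 35.7, 42.4, 64.2 and 73.2 CPM at day 3. No library of day 1 or day 3 overlapped day 0. The log2 fold change was 2.36 ± 0.27 at day 1 (adjusted p = 3.85e-05) and 1.63 ± 0.27 at day 3 (adjusted p = 0.000608, edgeR).

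Jun, the partner of Fos and a target of Jun N-terminal kinase (chr4:95049034-95052222), was at 51.3, 62.5, 62.7 and 49.2 CPM at day 0. In the day 1 replicates 1 and 2 it was at 80.6 and 81.3 CPM, and in replicates 3 to 5 at 917, 248 and 610.0 CPM. The 3-digit libraries of day 1 were thus nearer to day 0 than to the other libraries of their own day. The change at day 1 was 2.78 ± 0.61 (adjusted p = 0.00307, edgeR), and 2.18 without day 1 replicate 3. At day 3 Jun was at 112, 74.0, 78.9, 82.8 and 110.2 CPM, all above day 0, yet the fold change of 0.70 was not called (adjusted p = 0.355) in the fit over all days. With only the libraries of days 0 and 3 it was called (0.68, adjusted p = 0.00902).

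Junb, a Jun protein that acts more weakly than Jun on many promoters (chr8:84974484-84978718), was at 11.5, 12.1, 10.4 and 25.0 CPM at day 0. Day 1 libraries were at 80.1, 70.1, 201, 179 and 172 CPM, and day 3 libraries at 83.3, 30.1, 42.8, 68.1 and 91.4 CPM. No day 1 or day 3 library overlapped day 0, where replicate 4 was again the highest. Junb rose by 3.25 ± 0.44 at day 1 (adjusted p = 0.000116) and by 2.10 ± 0.42 at day 3 (adjusted p = 0.00215, edgeR).

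Jund, the Jun protein that most resting cells make steadily (chr8:70698949-70700616), changed least of the 9 genes that rose at day 1. It was at 116, 106, 117 and 109 CPM at day 0, at 136, 153, 473, 335 and 220.2 CPM at day 1 and at 136, 135, 128, 122 and 219.9 CPM at day 3. The log2 fold change was 1.23 ± 0.32 at day 1 (adjusted p = 0.00738, edgeR). Every day 3 library was above every day 0 library, with a fold change of 0.40 that was not called (adjusted p = 0.33).

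Atf3, a stress-induced bZIP protein that can repress or activate with Jun partners (chr1:191170296-191218039), was at 1.61, 3.00, 1.52 and 1.57 CPM at day 0. At day 1 it was at 25.3 and 22.9 CPM in the 3-digit libraries and at 563, 193 and 509 CPM in the 1-digit libraries, a log2 change of 7.08 ± 1.11 (adjusted p = 0.000326, edgeR). Atf3 therefore varied widely within day 1 while staying above day 0 in each library. At day 3 it was at 13.6, 10.025, 11.6, 7.80 and 44.2 CPM, all above day 0, a change of 3.17 ± 0.95 (adjusted p = 0.0202). That call was lost without day 0 replicate 1, 3 or 4 or without day 3 replicate 5, with adjusted p from 0.0527 to 0.0567 in those fits and a fold change of 2.49 without day 3 replicate 5.

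Maff, a small Maf protein with no activating domain of its own (chr15:79346621-79359076), was at 4.72, 3.24, 2.91 and 4.72 CPM at day 0. It was at 57.0, 39.7, 199, 149 and 183 CPM at day 1 and at 18.7, 16.7, 9.95, 24.0 and 45.6 CPM at day 3. All injured libraries were above all controls, by 5.003 ± 0.58 at day 1 (adjusted p = 4.06e-05) and 2.55 ± 0.53 at day 3 (adjusted p = 0.0027, edgeR).

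Batf, known from T cells, B cells and myeloid cells (chr12:85686669-85709087), had at most 21 counts in a library. It was at 0, 1.24, 0.19 and 0.121 CPM at day 0, and from 0.59 to 1.45 CPM at day 1 and from 0.732 to 0.955 CPM at day 3. Replicate 2 of day 0 alone overlapped the injured libraries. The fold changes of 1.17 at day 1 (adjusted p = 0.199) and 1.12 at day 3 (adjusted p = 0.24) were not called, whereas without that library they were 3.03 (adjusted p = 0.00449) and 2.97 (adjusted p = 0.00663, edgeR).

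At day 3, 5 members were still called higher than day 0 (Fosl1, Fosl2, Junb, Atf3 and Maff), where 19.5% of all genes were, and 7 members did not overlap day 0 (those 5 with Jun and Jund), as did 16.9% of all genes. With the number format of the libraries as a term in the fit, 9 members were called, adding Fos (2.74, adjusted p = 0.0407), Fosb (4.19, adjusted p = 0.00258), Jun (1.74, adjusted p = 0.0308) and Jund (0.89, adjusted p = 0.0178, edgeR). That term takes 1 format effect for both days, whereas the effect differed between the days for Jun and Atf3, and these 4 values lie above the estimates within either format. Fitted per day and format, Fos (1.76 with 1 digit and 1.04 with 3 digits), Jun (0.77 and 0.65) and Jund (0.61 and 0.25) were called in neither format, and Fosb (3.35 and 1.02) in the 1-digit libraries alone. Other settings called some of them. Jun was called in the 3-digit libraries when the 1-digit libraries of days 1 and 3 were left out of the fit (0.65, adjusted p = 0.012) or without day 1 replicate 4 (adjusted p = 0.0203), and in the 1-digit libraries with total-count scaling (adjusted p = 0.0393) or without day 1 replicate 3 or 4 (0.0363 and 0.00811). Jund was called in the 1-digit libraries with total-count scaling (adjusted p = 0.0234), by DESeq2 (0.0456) and without day 1 replicate 3, day 1 replicate 5 or day 3 replicate 4 (adjusted p from 0.00996 to 0.0248), and Fos in both formats without day 0 replicate 4. The members' median log2 fold change was 1.86 at day 3, beside 0.05 over all genes. This comparison uses the same day 0 libraries as that of day 1, so the values of both days are given side by side and their likeness was not tested. All 7 neutrophil markers found in the files rose at either day, from a summed 1.39 to 2.07 CPM at day 0 to 50.8 to 221 CPM at day 1 and 19.7 to 485 CPM at day 3. Of the other markers at day 3, fibroblast and pericyte markers were called higher in 5 of 6 cases (summed 384.8 to 836 CPM, against 94.0 to 102 CPM at day 0), macrophage and monocyte markers higher in 5 of 10 and lower in 1 (132 to 458 CPM, against 133 to 212 CPM), and thick limb and distal tubule markers lower in 6 of 6 (2235 to 3448 CPM, against 7109 to 9831 CPM). Over all genes, 13.8% were called lower at day 3. Smooth muscle markers were called higher in 3 of 6 cases, proximal tubule markers lower in 6 of 10 and collecting duct markers lower in 3 of 6. The part of these cell types in the AP-1 values was not tested.

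**Figure D2:**
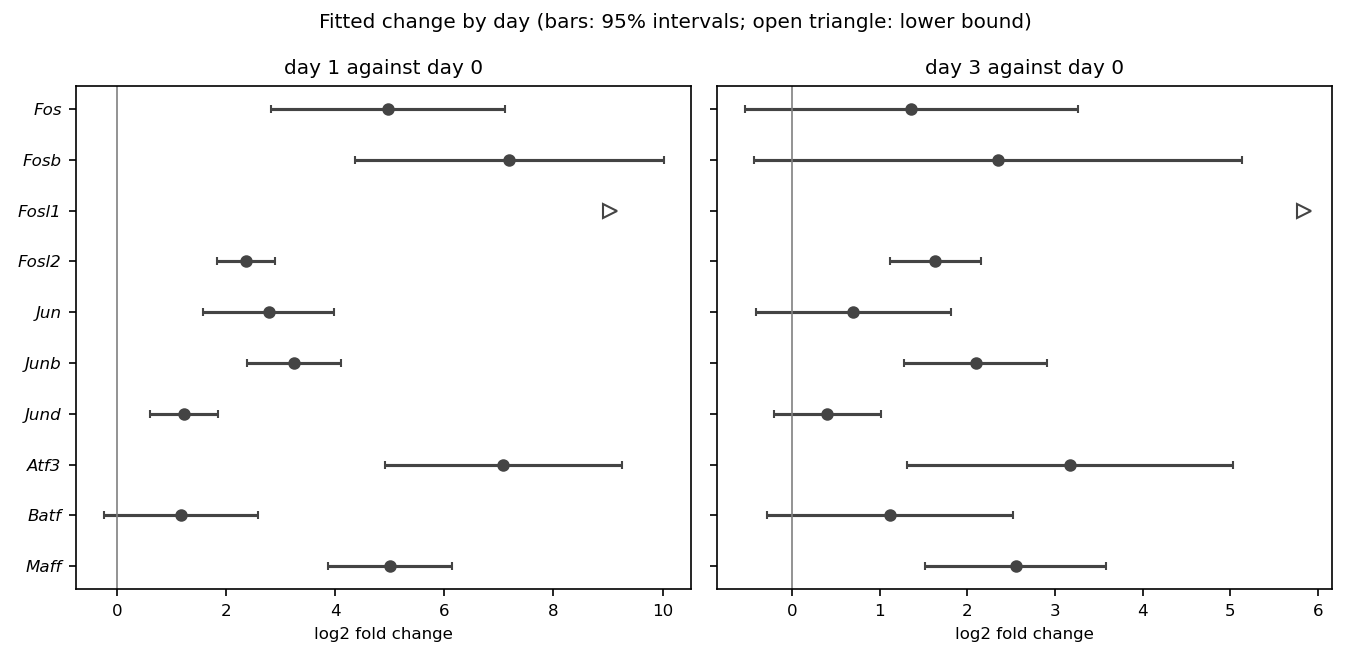
Fitted log2 fold change of each AP-1 gene at day 1 (left) and day 3 (right) against the same 4 day 0 libraries; points are edgeR estimates, bars are 95% intervals, and open triangles are lower bounds for Fosl1. Apart from Fosl1, Fosb and Atf3 have the largest changes at day 1 (7.19 and 7.08), and Jund the smallest of the genes that rose (1.23).

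Between day 1 and day 3, 7 members fell (Fos, Fosb, Fosl1, Jun, Junb, Atf3 and Maff), where 7.39% of all genes were called lower. The largest declines were those of Fosb (-4.84), Atf3 (-3.92), Fos (-3.61) and Fosl1 (-3.21) on the log2 scale. Without day 3 replicate 5 they were -5.91 for Fosb, -4.63 for Atf3 and -4.36 for Fosl1. Maff fell by 2.45 (adjusted p = 0.00588), Jun by 2.08 (adjusted p = 0.0219) and Junb by 1.15 (adjusted p = 0.0475, edgeR). Fosl2 (-0.73, adjusted p = 0.0514), Jund (-0.83, adjusted p = 0.0676) and Batf (-0.06, adjusted p = 0.96) did not pass. Each of the 10 genes overlapped between day 1 and day 3 when all libraries were pooled, while 3.47% of all genes were lower at day 3 without overlap. With the number format as a term, 3 of the 7 calls were lost, those of Fos (-2.50, adjusted p = 0.0561), Jun (-1.25, adjusted p = 0.114) and Junb (-0.87, adjusted p = 0.0565, edgeR), and Fosl2 was called (-0.60, adjusted p = 0.0345). Jun and Junb also lost theirs with only the libraries of days 1 and 3 (adjusted p = 0.0637 and 0.081), Jun with the replicate number as a block (adjusted p = 0.0703) and Junb with total-count scaling (adjusted p = 0.0708). The Junb call did not hold in 10 of the 14 fits that left out a library (all but those without day 0 replicate 4, day 1 replicate 1 or 2, or day 3 replicate 5), and Jun lost its call without day 1 replicate 3 (-1.48, adjusted p = 0.0624), day 1 replicate 5 (0.055) or day 3 replicate 3 (0.0516). In the other direction, Fosl2 was called with the unstranded column, RLE scaling, DESeq2 or the replicate block (adjusted p from 0.0109 to 0.0498), and without day 0 replicate 4, day 1 replicate 1, day 1 replicate 2 or day 3 replicate 5, with adjusted p from 0.0253 to 0.0423. Jund was called by DESeq2 (adjusted p = 0.0272) and without day 1 replicate 1, day 1 replicate 2 or day 3 replicate 5, with adjusted p from 0.0239 to 0.027. Thick limb and distal tubule markers were called lower at day 3 than at day 1 in 4 of 6 cases, and tubular injury markers in 2 of 8. Fibroblast and pericyte markers were higher in 2 of 6 and macrophage and monocyte markers in 2 of 10, beside 8.52% of all genes. Endothelial markers were higher in 1 of 6 and lower in 2. The part of these cell types in the AP-1 declines was not tested.

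The libraries of day 1 split by number format, and the AP-1 genes followed that split. All 10 members were lower in both 3-digit libraries than in all 3 1-digit libraries of day 1, a pattern that 29.4% of all genes showed. The test called 8 of them lower in the 3-digit libraries, where 16.4% of all genes were called lower. The gap was -5.28 ± 0.70 for Fosb, -4.13 ± 0.64 for Atf3, -3.49 ± 0.97 for Fos and -2.87 ± 0.42 for Jun on the log2 scale (adjusted p from 0.000306 to 0.0144, edgeR), and for Fosb -6.20 without day 1 replicate 1 and -4.69 without day 1 replicate 2. It was smaller for Maff (-1.87), Fosl1 (-1.51), Junb (-1.29) and Jund (-1.25), and not called for Fosl2 (-0.67, adjusted p = 0.0587) or Batf (-0.87, adjusted p = 0.461). Fosl2 was called with RLE scaling (adjusted p = 0.0485) or DESeq2 (0.0293), and without day 0 replicate 4, day 3 replicate 1 or day 3 replicate 2 (adjusted p from 0.0238 to 0.0429). The Fosl1 call (adjusted p = 0.0415) was lost in 8 of the 14 fits without a library, those without day 0 replicates 1, 2 or 3, day 1 replicates 1, 2, 4 or 5, or day 3 replicate 3, and with total-count scaling (adjusted p = 0.0731). The Fos and Junb calls were lost without day 1 replicate 1 or 2, which leaves a lone 3-digit library, and that of Junb also without day 1 replicate 3 (adjusted p = 0.0555).

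Other values moved with the format at day 1, where 18.6% of all genes were called higher and 16.4% lower in the 3-digit libraries. Summed proximal tubule markers were at 35328 to 45969 CPM in the 1-digit libraries and at 18089 and 28796 CPM in the 3-digit libraries, where 6 of the 10 markers were called lower. Smooth muscle markers were at 309 to 398 CPM against 487 to 578 CPM, with 5 of 6 called higher in the 3-digit libraries, and urothelial markers at 5.09 to 7.96 CPM against 14.7 and 99.8 CPM, with 4 of 7 called higher. Fibroblast and pericyte markers were at 123 to 167 CPM against 281 and 357 CPM, with 3 of 6 called higher and a median log2 difference of 1.51. Tubular injury markers were at 2375 to 5130.5 CPM against 6662 and 7307 CPM, with 1 of 8 called higher and 1 lower. Macrophage and monocyte markers were at 83.2 to 94.1 CPM against 132 and 142 CPM, with 1 of 10 called higher. Collecting duct markers were at 419 to 630 CPM against 774 and 795 CPM, with 1 of 6 called higher. Markers of tissue outside the kidney were at 22.7 to 30.8 CPM against 4.85 and 7.45 CPM. The neutrophil sums overlapped (50.8 to 221 CPM and 52.0 to 98.8 CPM). The shares of reads also differed without overlap. Multimapping reads made up 10.9 to 12.7% in the 1-digit and 8.47 and 9.81% in the 3-digit libraries, reads outside genes 13.7 to 17.0% and 11.1 and 12.8%, and unmapped reads 7.84 to 12.0% and 12.5 and 14.03%. The TMM scaling factors were 0.878 to 0.928 in the 1-digit libraries and 1.01 and 1.08 in the 3-digit libraries. The part of these cell types and library measures in the AP-1 gap was not tested, and what the number format marks is not given in the sources used here.

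At day 3 the 3-digit libraries were called lower for Fosb (-2.32), Fosl1 (-1.999) and Maff (-1.20), where 8.22% of all genes were called lower. The other 7 members were not called over all libraries. Several marker lists differed between the formats here, beside 10.3% of all genes called higher and 8.22% lower. In the 3-digit libraries macrophage and monocyte markers were called higher in 6 of 10 cases and lower in 1 (267 to 458 CPM, against 132 and 134 CPM with 1 digit), and proximal tubule markers higher in 5 of 10 (8829 to 18200 CPM, against 9041 and 10422 CPM). Called lower were 3 of 6 endothelial markers (165 to 277 CPM, against 363.5 and 626 CPM), 3 of 6 smooth muscle markers (289 to 347 CPM, against 777 and 958 CPM), 2 of 4 podocyte markers, 2 of 6 fibroblast and pericyte markers and both tested markers of tissue outside the kidney, of 7 such markers (2.48 to 3.56 CPM, against 12.98 and 18.7 CPM). Their part in the AP-1 values was not tested. The calls depended on single libraries. Without day 3 replicate 5, Fosb (-0.97), Fosl1 (-0.0074) and Maff (-0.69) lost them (adjusted p = 0.544, 0.993 and 0.244), and the count over all genes went from 2645 to 91. In that replicate the neutrophil markers summed to 485 CPM, against 19.7 to 138 CPM in the other day 3 libraries, and their part was not tested. The 3 calls were also lost without day 3 replicate 3 (adjusted p = 0.102, 0.0694 and 0.0652, edgeR), and those of Fosb and Fosl1 without day 3 replicate 2 (0.115 and 0.057), with 1144 and 1176 genes called in those fits. Without day 3 replicate 1 the count was 4771 and Fosl2 and Junb were called as well. The Fosb call was further lost without day 0 replicate 1, 2 or 3 (adjusted p from 0.0527 to 0.055), and without day 3 replicate 4 the gaps of Fosb and Fosl1 were -3.03 and -2.81 and Atf3 was called (-1.91, adjusted p = 0.0135). The gap between formats was larger at day 1 than at day 3 for Jun (difference -2.74 ± 0.56, adjusted p = 0.00571) and Atf3 (-2.98 ± 0.80, adjusted p = 0.0226, edgeR), where 9.10% of all genes had a difference called in that direction. The difference was not called for the other 8 members over all libraries. It was called for Fosb without the filter (adjusted p = 0.0457) and without day 0 replicate 4, day 1 replicate 4, day 3 replicate 2 or day 3 replicate 5 (adjusted p from 0.023 to 0.0458), for Fos without day 0 replicate 4 (0.0236) and for Jund without day 1 replicate 5 (0.0364) or day 3 replicate 5 (0.0382, edgeR). For Fosl1 it was 0.49 ± 0.74 (adjusted p = 0.689), with estimates of -1.51 at day 1 and -1.999 at day 3. The Atf3 difference was not called without day 1 replicate 1 or 2, and was -4.71 without day 3 replicate 5 and -2.21 without day 3 replicate 4, whereas the Jun difference was called in each fit without a library.

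Within the formats, the rise at day 1 was found for 9 members in the 1-digit libraries, all but Batf, where 28.9% of genes were called higher. In the 3-digit libraries 6 members rose (Fosb, Fosl1, Fosl2, Junb, Atf3 and Maff), where 22.6% of genes did. Since day 0 has 1-digit libraries only, day and format cannot be told apart in the latter contrast. Jun was 3.39 ± 0.33 above day 0 with 1 digit and 0.52 ± 0.35 above it with 3 digits, the latter not called (adjusted p = 0.251), though it was when the 1-digit libraries of days 1 and 3 were left out of the fit (0.52, adjusted p = 0.0372). Jund was at 1.61 ± 0.22 and 0.37 ± 0.25 (adjusted p = 0.259), the latter likewise called without those libraries (adjusted p = 0.0154, edgeR). For Fos the values were 5.62 ± 0.82 and 2.14 ± 0.84 (adjusted p = 0.0567), and 7.68 and 4.19 (adjusted p = 0.000393 for the latter) without day 0 replicate 4. The 3-digit value was also called without the filter (adjusted p = 0.0467) or without day 3 replicate 2 (0.0491, edgeR). Fosb lost its 3-digit call (2.62, adjusted p = 0.0167) without day 1 replicate 1 (1.68, adjusted p = 0.228), and without day 0 replicate 4 it was at 3.62 there and at 8.90 in the 1-digit libraries, against 7.90 with that control. Batf was called in both formats without day 0 replicate 2 (3.33 and 2.46). Fosl1 was at least 710-fold higher than its day 0 floor in the 1-digit libraries and at least 249-fold higher in the 3-digit libraries. With 1 and 3 digits, proximal tubule markers were called lower in 4 and 7 of 10 cases and thick limb and distal tubule markers in 3 and 6 of 6 (29.6% and 19.0% of genes). Fibroblast and pericyte markers were higher in 2 and 4 of 6. Smooth muscle markers were higher in 3 (1 lower) and 4 of 6, and endothelial markers in 4 and 3 of 6, each with 1 lower. The part of these cell types was not tested.

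**Figure D3:**
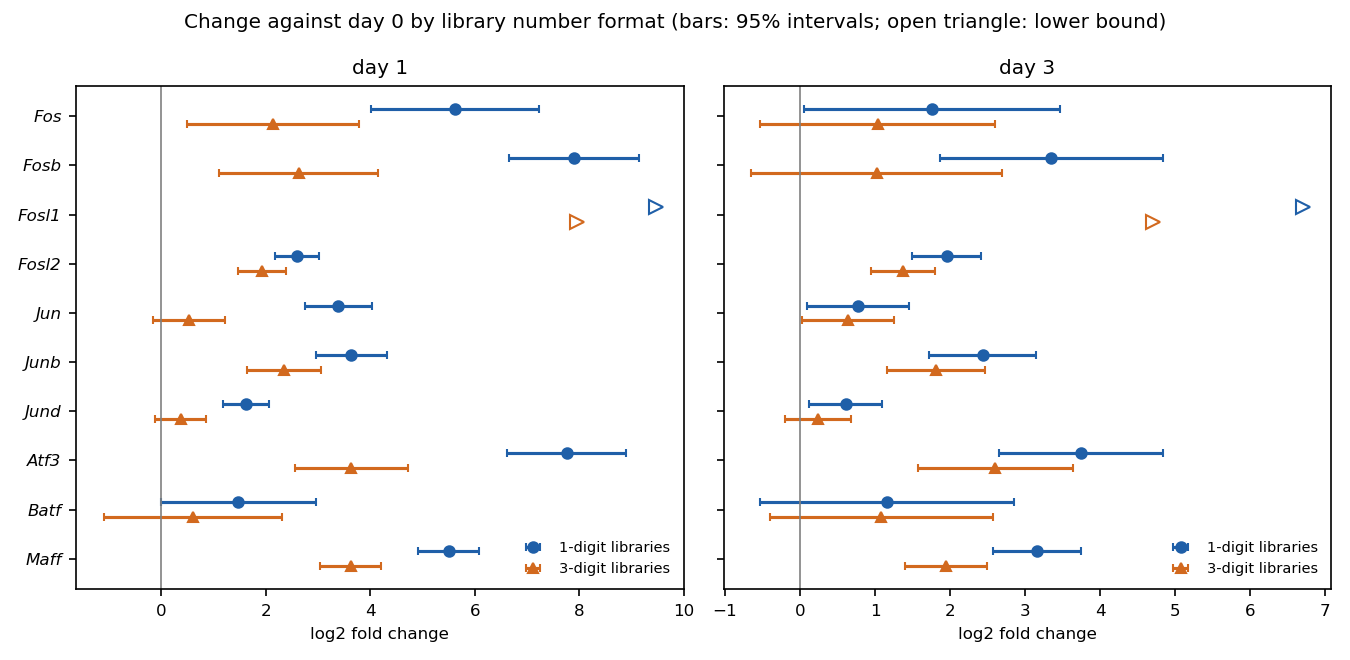
Log2 fold change against day 0 at day 1 (left) and day 3 (right), fitted for the 1-digit libraries (circles) and 3-digit libraries (triangles) with bars of 95% intervals; open triangles are lower bounds for Fosl1. At day 1 the 3-digit estimates of Jun (0.52) and Jund (0.37) have bars that reach 0, whereas those of Fosl2, Junb, Atf3 and Maff lie above it in both formats.

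At day 3, 6 members were higher than day 0 in the 1-digit libraries (Fosb, Fosl1, Fosl2, Junb, Atf3 and Maff; 28.6% of genes) and 5 in the 3-digit libraries (those without Fosb; 19.1% of genes). The 1-digit group of day 3 holds only replicates 4 and 5. The Fosb value in it of 3.35 was 2.00 and not called without day 3 replicate 5 (adjusted p = 0.122), 4.06 without day 3 replicate 4 and 4.34 without day 0 replicate 4, and Fos was called in both formats without that control (3.81 and 3.09). Atf3 was 3.74 ± 0.56 and 2.60 ± 0.53 above day 0 in the 1-digit and 3-digit libraries, the former being 2.04 without day 3 replicate 5 and 4.52 without day 3 replicate 4, Junb 2.43 ± 0.36 and 1.82 ± 0.33, and Fosl2 1.96 ± 0.24 and 1.37 ± 0.22. Fosl1 was at least 104.5-fold and 26.0-fold higher than its floor, the former being 25.8-fold without day 3 replicate 5. From day 1 to day 3, 8 members fell within the 1-digit libraries (15.5% of genes) and 2 within the 3-digit libraries (6.41% of genes). Those 2 were Fosl1, which fell by 2.77 in the 1-digit and by 3.26 in the 3-digit libraries, and Maff, which fell by 2.34 and by 1.68. In the 1-digit libraries 5 members were called without day 3 replicate 4, when Fos (-3.23, adjusted p = 0.0903), Junb (-1.01, adjusted p = 0.202) and Jund (-0.64, adjusted p = 0.154, edgeR) lost their calls, and the Fosl1 decline was then -1.95, against -4.79 without day 3 replicate 5. Junb also lost this call without day 1 replicate 3, 4 or 5 or day 3 replicate 5, and Jund without day 1 replicate 3 (adjusted p from 0.0521 to 0.0805). Fosl2 was called in the 1-digit libraries by DESeq2 (adjusted p = 0.0402) and without day 0 replicate 4 (0.0312) or day 3 replicate 1 (0.0461), and in the 3-digit libraries without day 3 replicate 1 (0.0487). Without day 1 replicate 1 the Maff decline in the 3-digit libraries was -1.39 (adjusted p = 0.0701). Jun fell by 2.62 ± 0.42 in the 1-digit libraries and was not called in the others (0.12 ± 0.38, adjusted p = 0.855). Over the same days, proximal tubule markers were called lower in 8 of 10 cases with 1 digit. Thick limb and distal tubule markers were lower in 4 of 6 and higher in 1. Fibroblast and pericyte markers were higher in 5 of 6, and smooth muscle markers higher in 4 of 6 and lower in 1 (16.5% of genes higher). With 3 digits, proximal tubule markers were higher in 2 of 10 and lower in 1 (7.50% of genes higher). The part of these cell types was not tested.

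Levels of different genes were compared as CPM per kilobase of exon. At day 0 Jund stood highest at 67.1 ± 3.13 (SD, n = 4), then Jun at 17.7 ± 2.25 and Junb at 6.41 ± 2.98, and these levels did not overlap with each other or with Fosl2 at 1.83 ± 0.57. From Fosl2 down, through Maff, Fos, Atf3, Batf, Fosb and Fosl1, each gene overlapped its neighbour in the order. At day 1 the order was Jund (158 ± 84.5, n = 5), Atf3 (122 ± 121), Jun (121 ± 115), Junb (61.0 ± 26.4), Maff (48.3 ± 28.1), Fosl1 (46.5 ± 25.2), Fos (40.0 ± 36.2), Fosl2 (9.41 ± 2.45), Fosb (6.84 ± 6.72) and Batf (0.638 ± 0.291), with every pair of neighbours overlapping. That order pools the formats, and they differed in it. Jund, Atf3, Jun and Junb led in the 1-digit libraries (206, 196, 186 and 79.95), and Jund, Junb, Jun and Fosl1 in the 3-digit libraries (86.6, 32.6, 25.4 and 22.1), where Atf3 (11.2) was the sixth. Junb nevertheless exceeded Maff in 5 of 5 day 1 libraries. At day 3 Jund was highest in all 5 libraries (88.8 ± 24.3) and did not overlap Jun (28.7 ± 5.67), while Jun and Junb (27.4 ± 11.4) overlapped.

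The summed level of the 10 genes was 97.1 ± 3.15 CPM per kilobase at day 0, 614 ± 411 at day 1 and 177 ± 58.0 at day 3. It was 217 and 202 in the 3-digit libraries of day 1 and 1145, 636 and 870 in the 1-digit libraries. The Jun family made up 94.0 ± 2.48% of that sum at day 0, 59.5 ± 10.3% at day 1 and 83.2 ± 4.86% at day 3, with the ranges of day 0 and day 1 apart (90.5 to 96.2% and 45.7 to 73.2%). The Fos family made up 3.21 ± 2.48%, 17.1 ± 3.54% and 7.54 ± 2.20%. Its mean share at day 1 was 17.5% in the 1-digit libraries (12.9 to 20.7%) and 16.5% in the 3-digit libraries (13.8 and 19.3%). Its summed level was 148 and 34.9 CPM per kilobase. The Jun family share at day 1 did not overlap between the formats, at 53.1% (45.7 to 57.5%) and 69.1% (65.0 and 73.2%). These shares were not tested. Within the Fos family, Fosl2 held 71.1 ± 22.1% at day 0, where Fos held the larger part in replicate 4. Fosl1 held 50.9 ± 15.1% at day 1, where Fos held more than Fosl1 in replicates 3 (52.6 against 33.2%) and 5 (47.1 against 36.3%). At day 3 Fosl2 held 45.9 ± 13.3%, with Fosl1 above it in replicate 5 (51.9 against 24.2%). Within the Jun family, Jund held 73.6 ± 2.49% at day 0, 50.4 ± 12.0% at day 1 and 61.4 ± 6.24% at day 3. At day 1 Jun held more than Jund in 2 of the 3 1-digit libraries, replicates 3 (43.7 against 43.1%) and 5 (48.0 against 33.2%). Atf3 alone made up 21.3 ± 6.67% of all 10 genes in the 1-digit libraries of day 1 and 5.34 ± 0.10% in the 3-digit ones.

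**Figure D4:**
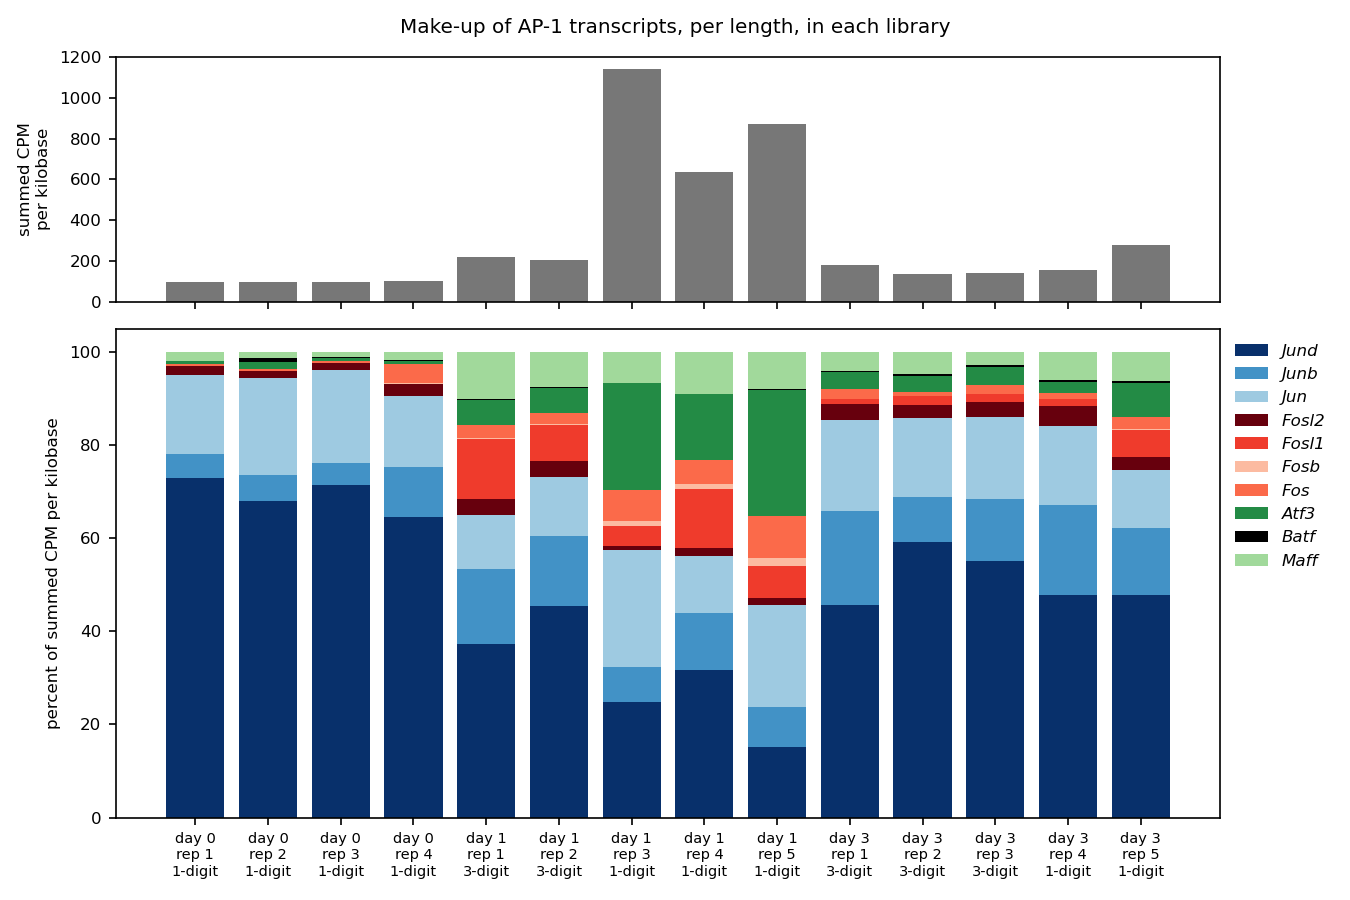
Summed CPM per kilobase of the 10 AP-1 genes in each library (top) and the percent that each gene contributed (bottom); blue is the Jun family, red the Fos family, green Atf3 and Maff, and black Batf. Jund is the largest segment in each day 0 and day 3 library, and the sum is highest in the 3 libraries of day 1 with 1-digit numbers.

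Across the 14 libraries, log2 CPM of the members moved together, except for Batf. The 36 pairs without Batf had Pearson correlations from 0.71 to 0.99, and from 0.45 to 0.93 after day means were subtracted. The 9 pairs with Batf ran from 0.43 to 0.66, and from -0.06 to 0.46 after subtraction. The points share libraries and depth, and no test was made. Among 13326 other genes, the nearest to Fos were Egr1 (r = 0.98), Ier3 (0.96) and Ier2 (0.96), all known as immediate early genes. The nearest to Atf3 were Dusp8 (0.98), Hbegf (0.98) and Ets2 (0.98), and to Maff Dusp5 (0.99), Ets2 (0.98) and Bcl10 (0.98). Fosl1 was nearest to Sbno2 (0.99), Tnfrsf12a (0.99) and Lif (0.99), Fosb to Prkx (0.98), Csrnp1 (0.98) and Ppp1r15a (0.98), and Jun to Ccnl1 (0.98), Rab30 (0.97) and Rnd3 (0.96). Fosl2 and Junb had the same first neighbours, Cldn4 (0.99 for both) and Tes (0.98 and 0.99), with Snhg5 (0.98) next for Fosl2 and Hspb1 (0.98) for Junb. Jund was nearest to Tjap1 (0.94), Ralgds (0.94) and H2-Q10 (0.93), and Batf to Cd53 (0.84), Fcer1g (0.83) and Fpr2 (0.83), which leukocytes express.

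Of 15 genes for MAP kinases and the kinases upstream of them, 5 were called higher and 1 lower at day 1. Over all genes 23.3% were higher and 18.7% lower. The median log2 fold change of the 15 genes was 0.28. Map3k8 went from 1.65 ± 0.29 CPM (SD, n = 4) to 9.33 ± 5.96 CPM (n = 5), a change of 2.49 (adjusted p = 0.00403), Map2k3 changed by 1.59 (adjusted p = 0.00194) and Map3k20 by 1.06 (adjusted p = 0.00298, edgeR). Between formats at day 1, 2 of the 15 were higher and 5 lower in the 3-digit libraries, beside 18.6% and 16.4% of all genes, with Map3k8 (-2.11), Map2k6 (-1.58) and Map2k3 (-1.20) leading. Of 6 genes for serum response factor and its cofactors, 4 rose at day 1, beside the same 23.3%, led by Elk3 (1.12), Mrtfa (0.69) and Srf (0.60, adjusted p = 0.047). By format, Elk4 was lower (-1.82) and Mrtfa higher (0.60) in the 3-digit libraries.

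Of 12 other bZIP partners, 1 rose and 1 fell at day 1, where 23.3% of genes rose and 18.7% fell. Mafk, another small Maf, went from 30.1 ± 4.53 to 115 ± 61.9 CPM (log2 change 1.93, adjusted p = 0.00432), and Maf fell by 1.57 (adjusted p = 0.00123, edgeR). At day 1 the 3-digit libraries had less Mafk (-1.70) and Bach1 (-1.52), whose protein pairs with small Maf proteins, and more Nfe2l2 (1.01), which encodes the antioxidant regulator NRF2.

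Of 18 genes known as AP-1 targets, 15 were higher and 1 lower at day 1, where 23.3% of all genes were higher and 18.7% lower. At day 3, 13 were higher and 1 lower, where 19.5% and 13.8% of all genes were. Their median log2 fold change at day 1 was 4.58, or 3.67 with the 3 genes at or under the day 0 floor set to their bounds. Il6, an inflammatory cytokine, had no count at day 0 and was at 6.34 ± 5.24 CPM at day 1, at least 35.2-fold higher than the floor, or 22.5-fold without day 1 replicate 5. Mmp10, a matrix protease, was likewise at least 13.5-fold higher, and Timp1, an inhibitor of such proteases, changed by 7.24 (adjusted p = 4.06e-05, edgeR). Timp1 was at 0.191 ± 0.232 CPM (SD) at day 0, near the mean floor of 0.18 CPM, and at 30.3 ± 18.1 CPM at day 1. Its fold change thus rests on few day 0 counts. Vegfa fell by 0.77 at day 1 (adjusted p = 0.0194). By format, 4 of the 18 targets were called lower and 2 higher in the 3-digit libraries of day 1, where 16.4% of all genes were called lower and 18.6% higher, with Hbegf (-2.14) and Areg (-1.81) lower and Il11 (2.04) higher. The members' own values for this contrast were 8 lower, and the difference between these lists was not tested.

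**Figure D5:**
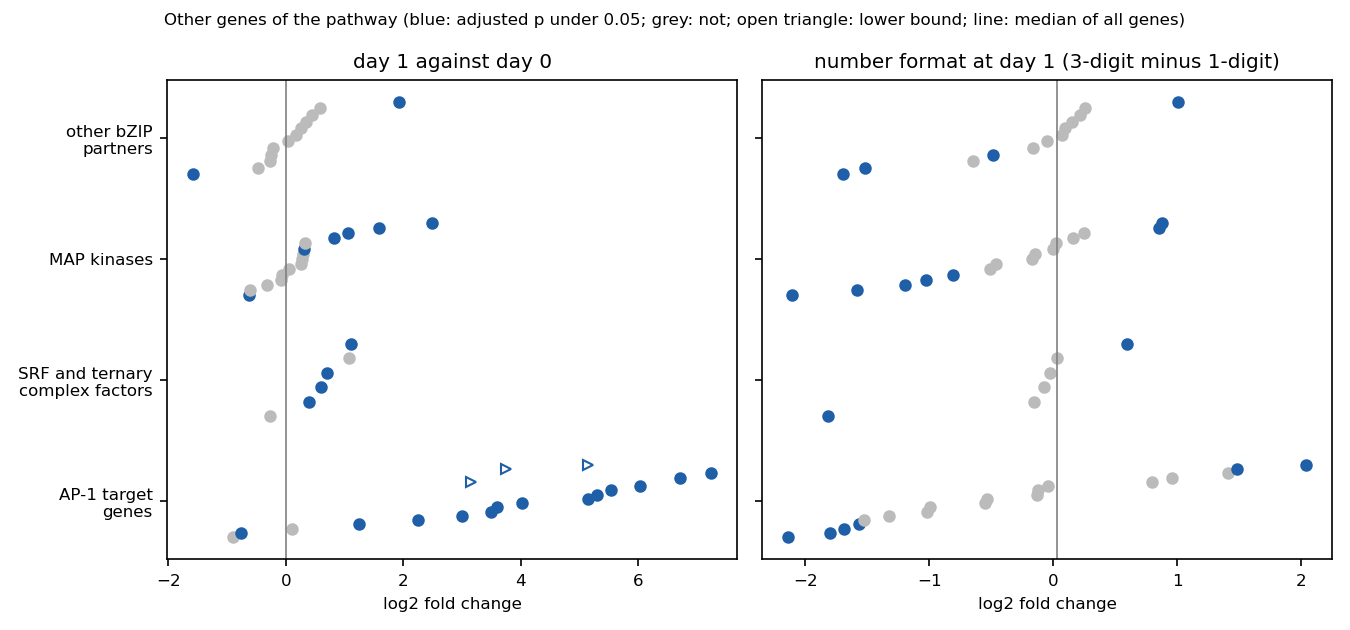
Log2 fold change of the genes of 4 related lists at day 1 against day 0 (left) and between number formats at day 1, 3-digit minus 1-digit (right); blue points passed the test (adjusted p under 0.05), grey points did not, open triangles are lower bounds, and the line is the median of all genes. At day 1, 15 of 18 AP-1 targets are blue and to the right, and 1 of 12 bZIP partners is.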

How the data were processed

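RNA-seq was made from 14 mouse kidney samples (TRIzol total RNA, Illumina TruSeq). Per the labels, the authors trimmed reads with Trimmomatic and aligned them to mm10 with STAR. The deposited values are whole-number gene counts per library. Versions and annotation are not given in the sources used here. The column of the strand opposite to the read was used, which held 98.5% to 98.7% of the reads on genes. Rows that name no gene (29.0% to 38.3% of reads) were left out. Genes were filtered with filterByExpr, scaled by TMM and tested with edgeR 4.0.16 (R 4.3.3, quasi-likelihood, 1 term per day, or per day and number format; standard errors from its F values), with Benjamini-Hochberg adjustment at 0.05 over 14300 genes. The script was tested on simulated data. Positions and exon lengths came from a GRCm38 annotation. CPM floors are 3 counts per library and cover counting error only.

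The members and lists were chosen with earlier results of these data known. Outside the members, the 3 genes of each pathway list with the largest called change at day 1 and between formats, and the 3 genes most like each member (mean of at least 1 CPM), were named. Vegfa was named after its value was seen, as the only target that fell. The alternatives were the unstranded column, RLE or total-count scaling, dropping the filter, requiring 10 counts in each library, DESeq2 1.42.0, only the days compared, a replicate block, a format term, either format alone, and each library left out.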

Additional observations from a re-analysis of the deposited data

Results flagged for a closer look

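Of 30 sets of libraries (10 genes on 3 days), 4 had a library far from the others of its day, where chance alone gives about 1 in 20 sets, or 1.5. Fos in day 0 replicate 4 was at 9.86 CPM, against 0.647 to 0.758 CPM in the other controls. Fosl2, Junb and Fosb were also highest there among the controls. Atf3 in day 0 replicate 2 was at 3.00 CPM, against 1.52 to 1.61 CPM. In day 3 replicate 5, Fosl1 was at 33.0 CPM, against 3.72 to 5.35 CPM, and Jund at 219.9 CPM, against 122 to 136 CPM.

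The number format effect differed between the days by a test of the difference for Jun (-2.74 on the log2 scale) and Atf3 (-2.98).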

How the results depend on the processing

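Of 825 values of single members under other settings, 784 kept direction and side of the threshold, 13 lost the call, 22 gained it and 6 reversed, and of 1680 values with a library left out, 1574, 54, 40 and 12 did so. The replicate numbers do not pair the samples (same-numbered libraries had deviations correlated from -0.17 to 0.26 over 13 pairs, 4 of them over 0.1). With the replicate block, 9, 5 and 7 members were called (day 1 and day 3 against day 0, day 3 against day 1), the same counts as without it, over 5162, 4103 and 2044 genes, but from day 1 to day 3 Jun lost its call (-1.62, adjusted p = 0.0703) and Fosl2 gained one (-0.74, adjusted p = 0.0109). No paired analysis was possible because the number sets the format within a day for the format contrasts. Total-count scaling shifted the median of all genes to 0.19 for day 3 against day 0 and to 0.24 for the format at day 1.

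Reversed values were Batf, day 3 against day 1 (0.12 with total counts, 0.018 with the block, 0.089 with the format term, 0.48 in 3-digit libraries), Jun in the same contrast (0.12 in 3-digit libraries) and the Fosl2 difference of format effects (0.086 with total counts). A format term, which takes 1 effect for both days although that of Jun and Atf3 differed, gave 9 members at day 3 against day 0, against 6 and 5 called within the 1-digit and 3-digit libraries, and the 3-digit libraries alone gave 3 for day 3 against day 1. A minimum of 10 counts, which tests fewer members, left 1 for the format at day 3 and 1 for day 3 against day 1 in 3-digit libraries. Genes changed from day 1 to day 3 were 831 with only those days and 5194 with only 1-digit libraries, and at day 3 against day 0 8119 with the latter.

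With each library left out, members called ranged from 1 to 4 (difference of format effects), 5 to 9 (format, day 1), 0 to 5 (format, day 3), 5 to 9 (day 3 against day 1, 1-digit) and 1 to 3 (3-digit). Genes ranged from 1260 to 3148, 1997 to 5602, 91 to 4771, 2794 to 5117 and 233 to 2476 in that order, from 3420 to 6498 for day 1, 3-digit, against day 0 and from 1269 to 3350 for day 3 against day 1. Ranges over which signs changed were -1.51 to 1.30 (Fosl1) and -0.24 to 0.14 (Fosl2) for the difference of format effects, -0.19 to 0.17 (Batf) from day 1 to day 3, -0.082 to 0.24 (Jun) in its 3-digit libraries, and, for the format at day 3, -1.36 to 0.41 (Fos), -0.34 to 0.072 (Jun), -0.73 to 0.10 (Jund), -1.91 to 0.57 (Atf3) and -0.20 to 0.022 (Batf). The causes were not tested. Fosl1 and Fosb at day 0 and Batf throughout rest on few counts, which limits their fold changes.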
